A study of Mus musculus with 17 samples.

Results

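The 32 genes described here code for enzymes and regulators of cholesterol and fatty acid synthesis that the sterol regulatory element binding proteins (SREBPs) control. They were chosen by gene name from a table of read counts on 48795 genes, in which all 32 were found, and were divided into a cholesterol branch of 23 genes and a fatty acid branch of 9 genes. RNA was sequenced from mouse kidney cortex in 17 libraries of 4 groups. WT (5 libraries) is labelled as wild type. GCERAd (5 libraries, labelled ATF4 KO) denotes Ggt/CreER TG/TG; ATF4 fl/fl mice after tamoxifen, in which a part of the Ggt1 promoter drives the tamoxifen-inducible Cre in proximal tubules, so that other cortical cells keep Atf4. Tamoxifen was given to them at 6 weeks of age, once on each of 2 days, in 200 µL at 20 mg/mL. WT and GCERAd mice were fasted for 16 h about a month later. TRACK (3 libraries) is a transgenic model of kidney cancer, known for a constitutively active HIF1A in proximal tubules, and GCERAdT (4 libraries, labelled TRACK-ATF4 KO) joins it with the Atf4 knockout. Age, tamoxifen and fasting of the TRACK and GCERAdT mice, and age and tamoxifen of the WT mice, are not given in the sources used here.

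SREBPs are made as precursors in the membrane of the endoplasmic reticulum. When sterols are scarce, the escort protein Scap carries them to the Golgi for cleavage, and when sterols are plentiful, Insig1 and Insig2 hold Scap back. The released part of SREBP2, from Srebf2, acts mainly on the genes of cholesterol synthesis, whereas SREBP1c, from Srebf1, acts mainly on those of fatty acid synthesis and responds to insulin and feeding. The kidney cortex consists largely of proximal tubules, which mostly burn fatty acids rather than make them.

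Sequences upstream of 6 of the 9 members that rose in GCERAd over WT are shown because SREBPs act at promoters beside the factor NF-Y, which binds CCAAT. Promoter sequences from RefSeq (GRCm38.p6, 250 bases before to 50 after the start) were matched for 26 of the 32 members, and Stard4, Fdft1, Scd2, Scd1, Sqle and Fdps had no entry. Letters were searched on both strands. Each window below has 80 bases, is read 5′ to 3′ on the strand of its gene, and has the matched letters in capitals. The windows were chosen to hold matched letters and to lie outside annotated exons of the gene. Of the other 3 that rose, Acat2 had no match to any of the letters searched, the CCAAT of Acss2 lay in no such window, and Sqle had no entry.
Hmgcs1, chr13:119690175-119690254, plus strand, with CCAAT (read as ATTGG) and 1 match to the sterol regulatory element TCACNCCAC: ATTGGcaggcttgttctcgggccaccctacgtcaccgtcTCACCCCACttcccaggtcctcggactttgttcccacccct
Insig1, chr5:28071196-28071275, plus strand, with CCAAT (read as ATTGG): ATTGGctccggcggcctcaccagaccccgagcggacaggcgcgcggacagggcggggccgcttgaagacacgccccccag
Mvd, chr8:122443423-122443502, minus strand, with 2 CCAAT, 1 on each strand: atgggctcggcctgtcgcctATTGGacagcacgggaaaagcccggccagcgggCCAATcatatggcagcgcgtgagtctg
Fasn, chr11:120824558-120824637, minus strand, with 3 CCAAT, of which a pair overlaps: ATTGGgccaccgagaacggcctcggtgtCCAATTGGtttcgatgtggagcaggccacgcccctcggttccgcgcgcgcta
Me1, chr9:86687406-86687485, minus strand, before the downstream one of its 2 starts, with CCAAT (read as ATTGG): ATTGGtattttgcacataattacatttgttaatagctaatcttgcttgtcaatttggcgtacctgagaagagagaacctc
Idi1, chr13:8885421-8885500, plus strand, with TGATGNAA, the element that ATF4 binds with a C/EBP partner, on the opposite strand: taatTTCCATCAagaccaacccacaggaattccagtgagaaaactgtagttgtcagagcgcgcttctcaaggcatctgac
The 26 matched members had 35 promoters in RefSeq, since some genes have several starts, and those of Scap and 2 of the 3 of Dhcr7 share bases. CCAAT occurred in 23 of the 35 (65.7%), belonging to 22 members, against 37.4% of all 32851 RefSeq promoters of this length. Idi1 was among these members, with CCAAT at 45 and at 14 bases before its start, outside the window shown. The sterol regulatory element TCACNCCAC occurred in 1 of the 35 (2.9%), that of Hmgcs1, against 1.2% of all promoters, and the E-box form TCACGTGA in 0 of the 35, against 1.0%. TGATGNAA occurred in 3 of the 35 (8.6%), belonging to Insig2 and Idi1, against 4.0% of all promoters. These matches are letters only and no binding was measured.

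Total counts on genes were between 53688512 and 71364561 per library, and the ranges of the groups overlapped. By the percentage of counts that processed pseudogenes took, libraries divided into kind A, at 0.032% to 0.038%, and kind B, at 0.0574% to 0.0784%. WT 1, 3, 4 and 5, GCERAd 1 and 2 and GCERAdT 1 and 2 were of kind A, and all 3 TRACK libraries were of kind B. Xist was at 147 to 422 CPM (counts relative to the TMM-scaled library size) in WT and at 6.06 CPM or less in the other 3 groups, all of which had counts on Y-linked genes, so WT mice differed in sex from all others and genotype and sex cannot be told apart in any comparison with WT. Atf4 had 84.8 ± 10.1 CPM in WT, 64.6 ± 8.92 CPM in GCERAd, 83.6 ± 8.54 CPM in TRACK and 93.3 ± 9.58 CPM in GCERAdT (SD), so it was lower in GCERAd than in WT (log2 fold change -0.38, SE 0.11, adjusted p = 0.0218, edgeR) but not in GCERAdT than in TRACK (log2 fold change 0.17, SE 0.11, adjusted p = 0.367), and groups are named by their labels throughout. Counts per gene do not separate the deleted exons of Atf4.

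Markers of cell types differed between the groups too. The 8 markers of proximal tubules summed to 6978 to 8554 CPM in WT, 7996 to 11150.0 CPM in GCERAd, 4550.0 to 5297 CPM in TRACK and 5016 to 5915 CPM in GCERAdT. Slc22a6 and Ggt1 were called higher in GCERAd over WT and 4 of the 8 lower in TRACK over WT, where Slc22a6 was higher, at 367 ± 27.0 CPM in WT and 609 ± 117 CPM in TRACK (SD). Markers of the thick limb and distal tubule (3 of 3) and of the collecting duct (2 of 3) were lower in GCERAd over WT, with sums of 5784 to 8216 and 574 to 737 CPM in WT and of 3800.0 to 4976 and 181 to 384 CPM in GCERAd. In TRACK over WT 2 of 3 of each were lower, with sums of 3742 to 6388 and 284 to 355.5 CPM in TRACK. Fibroblast and smooth muscle markers were higher in GCERAd (3 of 3) and TRACK (2 of 3) than in WT, at sums of 43.3 to 53.5 CPM in WT, 54.6 to 90.2 CPM in GCERAd and 79.5 to 123 CPM in TRACK. All 3 endothelial markers were higher in TRACK over WT and in GCERAdT over GCERAd, at sums of 159 to 191 CPM in WT, 187 to 212 CPM in GCERAd, 298 to 330.1 CPM in TRACK and 255 to 278 CPM in GCERAdT. Adipocyte transcripts were present in GCERAd 2 and 3 and in TRACK 1, with Cfd at 15.4, 15.1 and 50.9 CPM, while Lep, Retn and Adrb3 had no count in GCERAdT. All 8 adipocyte markers together, some of which other cortical cells also express, summed to 43.4 to 71.9 CPM in WT, 37.4 to 91.0 CPM in GCERAd, 51.8 to 157 CPM in TRACK and 44.0 to 71.6 CPM in GCERAdT. The part of these markers in the results on the members was not tested, other than by leaving out the libraries with adipocyte transcripts. GCERAd 4 and 5 stood apart from GCERAd 1 to 3, by some of these markers also. In whole cortex, fewer cells of a type and less RNA per cell cannot be told apart. The extraction note names fewer mice per group than the 5 libraries of WT and GCERAd. The paper's sequencing summary lists some sample names again with an added letter. WT 1 with 2 and GCERAd 2 with 3 may each be repeat libraries of a single mouse, and the main fits count them as separate. Cfd was at 3.53 and 5.27 CPM in WT 1 and 2 and at 0.4085 CPM or less in the other WT libraries. So p-values measure the spread between libraries, part of which may be technical.

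Per length, levels spanned a wide range in WT cortex. The mean FPKM was 198 for Scd1, 61.2 for Cyp51, 60.8 for Hmgcs1 and 49.7 for Me1, and it was 1.00 for Acaca and 0.256 for Fdps. Scd1 had the highest mean FPKM of the members in WT, while Me1 had the highest in GCERAd (122), TRACK (139) and GCERAdT (163). Fdps, the farnesyl diphosphate synthase, lay below the minimum of 1 FPKM for testing in all groups, with 0.503 to 1.64 CPM over the 17 libraries. It shares 26.7% of its exon bases with a second gene on the same strand, Gm43738, so its level is uncertain. The other 31 members were tested, except that Acaca was below the minimum in GCERAdT and TRACK.

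**Figure D1:**
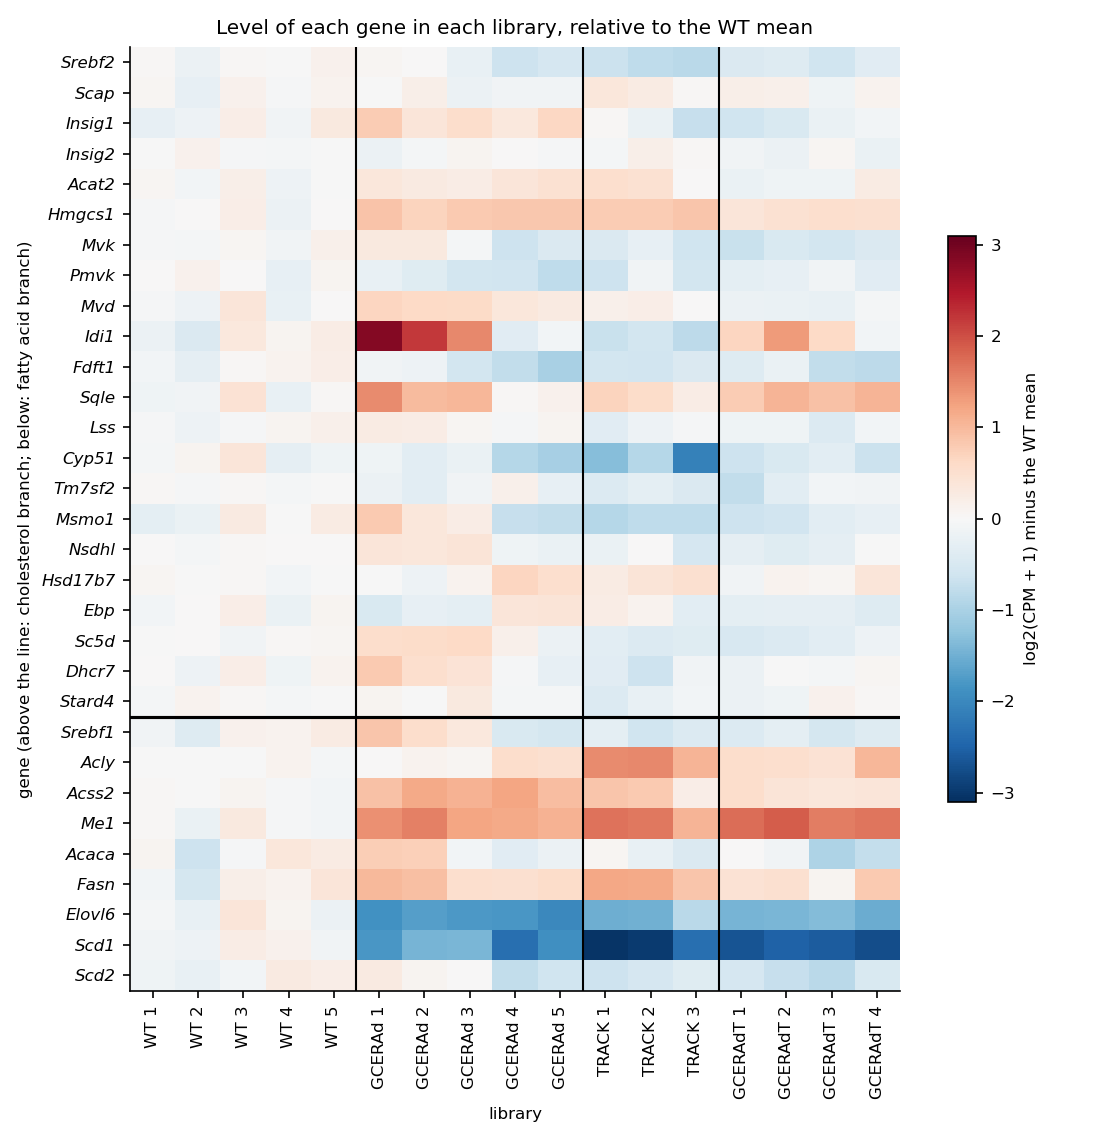
Heat map of 31 members (rows, Fdps left out) in the 17 libraries (columns), coloured by log2(CPM + 1) minus the mean of the 5 WT libraries, with the cholesterol branch above the line. Me1 is red and Scd1 and Elovl6 are blue in every library outside WT, and GCERAd 4 and 5 are bluer than GCERAd 1 to 3 for Idi1, Sqle, Msmo1 and Srebf1.

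In GCERAd over WT, Hmgcs1, Acat2, Mvd, Idi1 and Sqle of the cholesterol branch and Acss2, Me1 and Fasn of the fatty acid branch were higher, while Scd1 and Elovl6, which act on finished fatty acids, and the mevalonate enzyme Pmvk were lower. Of 31 members tested, 9 rose (29.0%), against 14.1% of all genes tested, and 3 fell (9.7%), against 13.5%. The regulator Insig1 was the other one that rose. In TRACK over WT, 8 of 31 rose (25.8%), against 23.0% of all genes, and 15 fell (48.4%), against 22.6%. Those that rose were Acat2, Hmgcs1, Sqle, Hsd17b7, Acly, Acss2, Me1 and Fasn. Those that fell were Srebf1, Srebf2, Mvk, Pmvk, Idi1, Stard4, Elovl6, Scd1 and Scd2, together with Fdft1, Cyp51, Tm7sf2, Msmo1, Sc5d and Dhcr7 of the steps to and from squalene. In GCERAdT over GCERAd, 2 of 31 rose (6.5%), against 9.39% of all genes, and 8 fell (25.8%), against 9.79%. Me1 and Elovl6 rose, and Insig1, Acat2, Hmgcs1, Mvd, Lss, Sc5d, Acss2 and Scd1 fell. With the library number as a replicate block, 3 rose and 11 fell in this comparison, with Acly, Srebf1, Nsdhl and Acaca added. Over all 11816 genes tested, 1821 rose and 1949 fell with the block, in place of 1109 and 1157 without it. Same-numbered libraries of these groups deviated together and were of the same kind. GCERAdT has no library 5, so GCERAd 5 adds nothing to this comparison once the block is in the fit. Without GCERAd 5 and without the block, Nsdhl, Dhcr7 and Srebf1 were newly called lower and Lss was lost. In GCERAdT over TRACK, 1 of 30 rose (3.3%), against 2.81% of all genes, and 3 fell (10.0%), against 4.28%. Idi1 was the one that rose, and Hmgcs1, Acly and Fasn fell. Comparisons that share a group are not independent of each other: both WT comparisons use the same 5 WT libraries, and both GCERAd comparisons the same 5 GCERAd libraries.

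**Figure D2:**
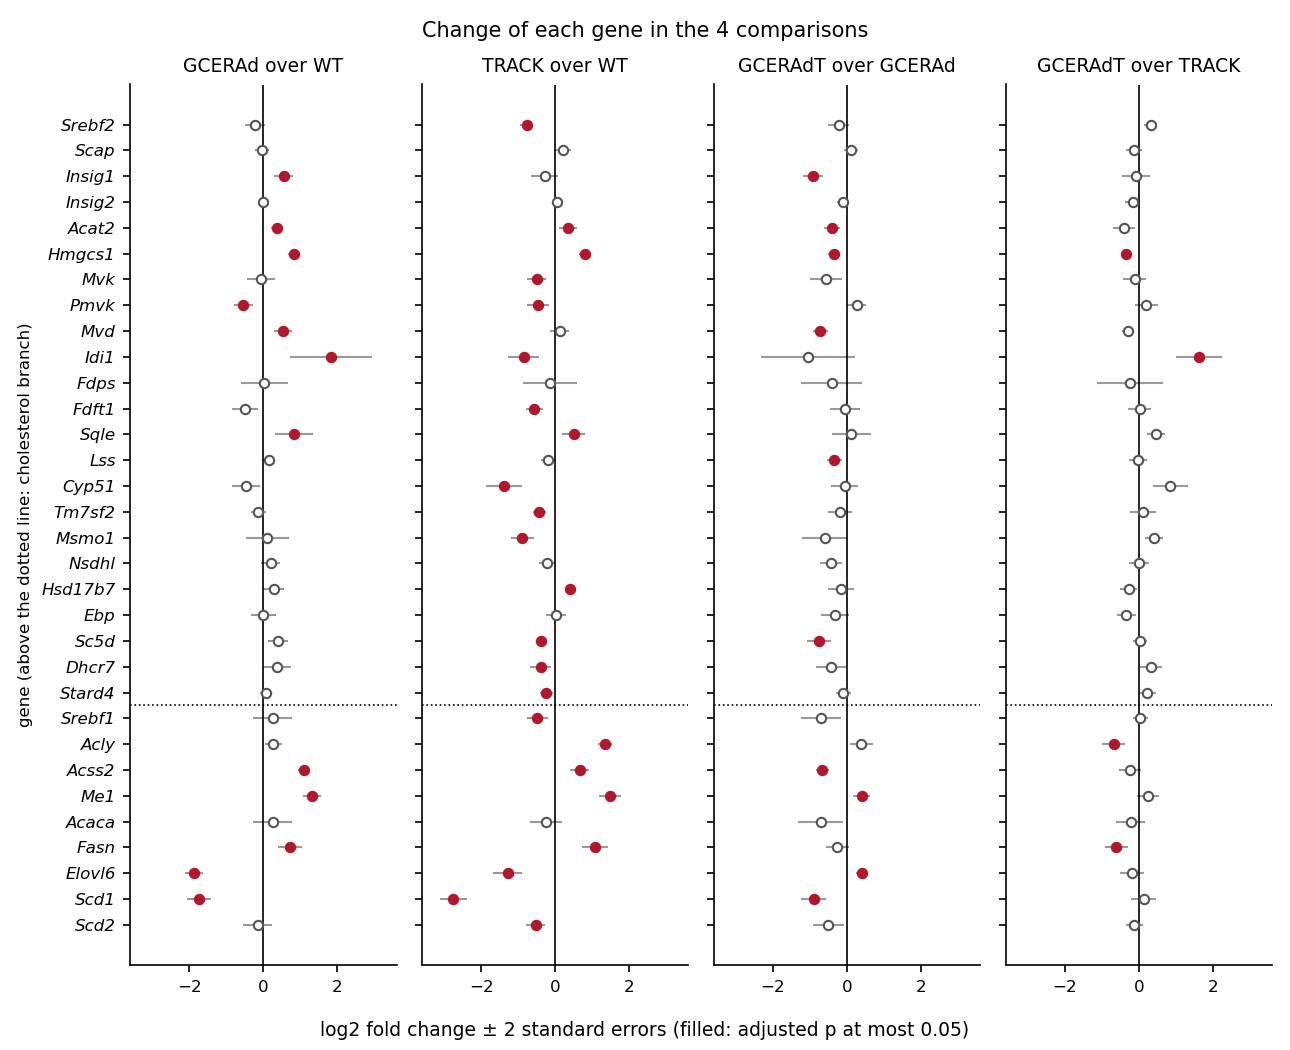
Log2 fold change of each member (rows, cholesterol branch above the dotted line) in the 4 comparisons (panels), with bars of 2 standard errors and filled points for an adjusted p of at most 0.05 among genes above the minimum. Scd1 reaches -2.76 in TRACK over WT, and GCERAdT over TRACK has filled points only for Hmgcs1, Idi1, Acly and Fasn.

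Values below are CPM in the order of the library numbers of each group, and folds are on the log2 scale from edgeR. Srebf2 codes for SREBP2, the master regulator of cholesterol synthesis, and stood at 107, 91.8, 107, 103 and 115 CPM in WT, 109, 105, 89.0, 66.9 and 72.1 CPM in GCERAd, 65.3, 60.5 and 58.0 CPM in TRACK and 76.2, 78.6, 68.0 and 81.2 CPM in GCERAdT. All 3 TRACK values lay below the lowest WT value, while GCERAd 1 to 3 lay near WT and GCERAd 4 and 5 lay lower. Srebf2 fell in TRACK over WT (log2 fold change -0.77, SE 0.09, adjusted p = 9.54e-05). In GCERAd over WT its log2 fold change was -0.23 (adjusted p = 0.22).

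Srebf1, which codes for SREBP1a and SREBP1c, had 26.9, 21.6, 31.6, 31.4 and 34.8 CPM in WT, 53.4, 42.8, 36.4, 20.4 and 19.6 CPM in GCERAd, 23.1, 18.3 and 21.4 CPM in TRACK and 21.3, 23.3, 19.6 and 21.5 CPM in GCERAdT. GCERAd 1 to 3 were above every WT library, whereas GCERAd 4 and 5 were below every WT library. The GCERAd mean was not distinguishable from WT, at a log2 value of 0.25 ± 0.26 (SE, adjusted p = 0.506). TRACK fell by 0.48 against WT (adjusted p = 0.0226), which did not hold without TRACK 2 (adjusted p = 0.0948). With library kind as a covariate this log2 value was -0.04, which rests on WT 2, the only WT library of kind B. In GCERAdT over GCERAd the log2 fold change was -0.70 (adjusted p = 0.101), and with the replicate block it was -0.77 (adjusted p = 0.0297). Isoforms of Srebf1 were not separated by the counts.

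The retention protein Insig1, itself an SREBP target, was at 29.4, 31.6, 41.0, 32.9 and 44.0 CPM in WT, 62.0, 46.1, 51.8, 44.5 and 55.8 CPM in GCERAd, 36.4, 30.6 and 21.2 CPM in TRACK and 22.5, 25.2, 30.4 and 33.1 CPM in GCERAdT. Each GCERAd value lay above the highest WT value and above the highest GCERAdT value. It rose in GCERAd over WT (log2 fold change 0.55, SE 0.13, adjusted p = 0.00776) and fell in GCERAdT over GCERAd (log2 fold change -0.92, SE 0.14, adjusted p = 0.0014). Between GCERAdT and TRACK the groups overlapped, with -0.07 (adjusted p = 0.839).

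Its homolog Insig2 was at 43.7, 48.7, 43.2, 42.2 and 44.2 CPM in WT, 39.3, 42.7, 46.8, 44.7 and 43.1 CPM in GCERAd, 42.3, 50.8 and 45.4 CPM in TRACK and 40.9, 38.6, 46.1 and 38.0 CPM in GCERAdT. All 17 libraries lay between 38.0 and 50.8 CPM, and no comparison passed the threshold. Scap, the escort protein, ranged from 75.9 to 117 CPM over all libraries and passed in no comparison either.

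Among the mevalonate enzymes, Hmgcs1 makes HMG-CoA from acetoacetyl-CoA and acetyl-CoA and had the highest counts, at 269.8, 281, 319.5, 244 and 282 CPM in WT, 513, 452, 487, 496 and 497 CPM in GCERAd, 484, 477 and 506 CPM in TRACK and 362, 384, 401 and 392 CPM in GCERAdT. The 5 WT libraries lay below all 12 others, and GCERAdT lay between WT and the remaining groups without overlap. Hmgcs1 rose in GCERAd over WT (log2 fold change 0.82, SE 0.08, adjusted p = 2.29e-05) and in TRACK over WT (log2 fold change 0.81, SE 0.08, adjusted p = 5.66e-05). In GCERAdT it was lower than in GCERAd (log2 fold change -0.36, SE 0.08, adjusted p = 0.00893), and lower than in TRACK (log2 fold change -0.34, SE 0.08, adjusted p = 0.0343). The last call was lost without any one of TRACK 1, 2 and 3 and GCERAdT 1 and 2 (highest adjusted p = 0.101). An antisense gene, Gm48342, shares 12.1% of the exon bases of Hmgcs1, and the strand setting of the counting is not stated.

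Acat2, the thiolase that makes acetoacetyl-CoA in the cytosol, stood at 52.7, 47.4, 57.3, 45.3 and 49.7 CPM in WT, 64.7, 61.7, 59.1, 65.6 and 70.5 CPM in GCERAd, 72.7, 69.6 and 50.7 CPM in TRACK and 43.8, 45.6, 45.5 and 60.3 CPM in GCERAdT. GCERAd lay above WT in every library, TRACK 3 overlapped WT, and GCERAdT 4 stood above the other 3 GCERAdT libraries. The log2 fold change was 0.36 ± 0.08 (SE, adjusted p = 0.00484) in GCERAd over WT, 0.35 ± 0.12 (SE, adjusted p = 0.0364) in TRACK over WT and -0.41 ± 0.10 (SE, adjusted p = 0.0209) in GCERAdT over GCERAd. The second call was lost without WT 1, 2, 4 or 5 or TRACK 1 or 2 (highest adjusted p = 0.163), and the last without GCERAdT 1, 2 or 3 (highest adjusted p = 0.0691).

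Mvd decarboxylates mevalonate diphosphate and was at 24.7, 22.6, 33.2, 21.4 and 25.4 CPM in WT, 40.7, 39.2, 38.8, 32.6 and 30.8 CPM in GCERAd, 28.0, 29.3 and 25.4 CPM in TRACK and 22.3, 21.6, 21.4 and 24.0 CPM in GCERAdT. WT 3 reached the lower GCERAd values, and all 5 GCERAd libraries lay above GCERAdT. Mvd rose in GCERAd over WT (log2 fold change 0.53, SE 0.12, adjusted p = 0.00764) and fell in GCERAdT over GCERAd (log2 fold change -0.72, SE 0.10, adjusted p = 0.000776).

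In TRACK, both kinases that phosphorylate mevalonate were lower than in WT. Mvk, the first of them, had 9.47, 9.17, 10.2, 8.89 and 10.9 CPM in WT, 12.2, 12.1, 9.18, 5.91 and 6.88 CPM in GCERAd, 6.84, 7.91 and 5.93 CPM in TRACK and 5.64, 6.67, 6.17 and 6.87 CPM in GCERAdT. TRACK lay below WT in all libraries, and Mvk fell in TRACK over WT (log2 fold change -0.49, SE 0.13, adjusted p = 0.0107). Pmvk, which adds the next phosphate, had 14.2, 15.4, 14.0, 11.6 and 14.9 CPM in WT, 11.7, 10.5, 9.04, 8.95 and 7.59 CPM in GCERAd, 8.59, 12.7 and 9.01 CPM in TRACK and 11.1, 11.5, 12.8 and 10.8 CPM in GCERAdT. Here TRACK 2 overlapped WT, and Pmvk fell in TRACK over WT (log2 fold change -0.47, SE 0.15, adjusted p = 0.0261), a call that was lost without WT 1, WT 5, TRACK 1 or TRACK 3 (highest adjusted p = 0.107). Pmvk also fell in GCERAd over WT (log2 fold change -0.54, SE 0.12, adjusted p = 0.00715), with GCERAd 1 just above the lowest WT value.

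Idi1, the isopentenyl diphosphate isomerase, varied widely, at 5.87, 4.71, 8.68, 7.22 and 8.14 CPM in WT, 54.6, 34.3, 20.9, 5.14 and 6.37 CPM in GCERAd, 3.79, 4.25 and 3.47 CPM in TRACK and 11.3, 18.4, 10.9 and 6.28 CPM in GCERAdT. GCERAd 1 to 3 were far above WT, while GCERAd 4 and 5 were within the WT range, and the 3 TRACK libraries lay below all others. In GCERAd over WT Idi1 rose (log2 fold change 1.82, SE 0.56, adjusted p = 0.03), and this call was lost without any single WT library, without GCERAd 1 and without GCERAd 2 (highest adjusted p = 0.0742). In GCERAdT over TRACK it also rose (log2 fold change 1.62, SE 0.31, adjusted p = 0.0156), a call lost without TRACK 1 (adjusted p = 0.0589). TRACK was lower than WT (log2 fold change -0.85, SE 0.21, adjusted p = 0.00885). GCERAdT and GCERAd overlapped, at -1.06 (adjusted p = 0.278).

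**Figure D3:**
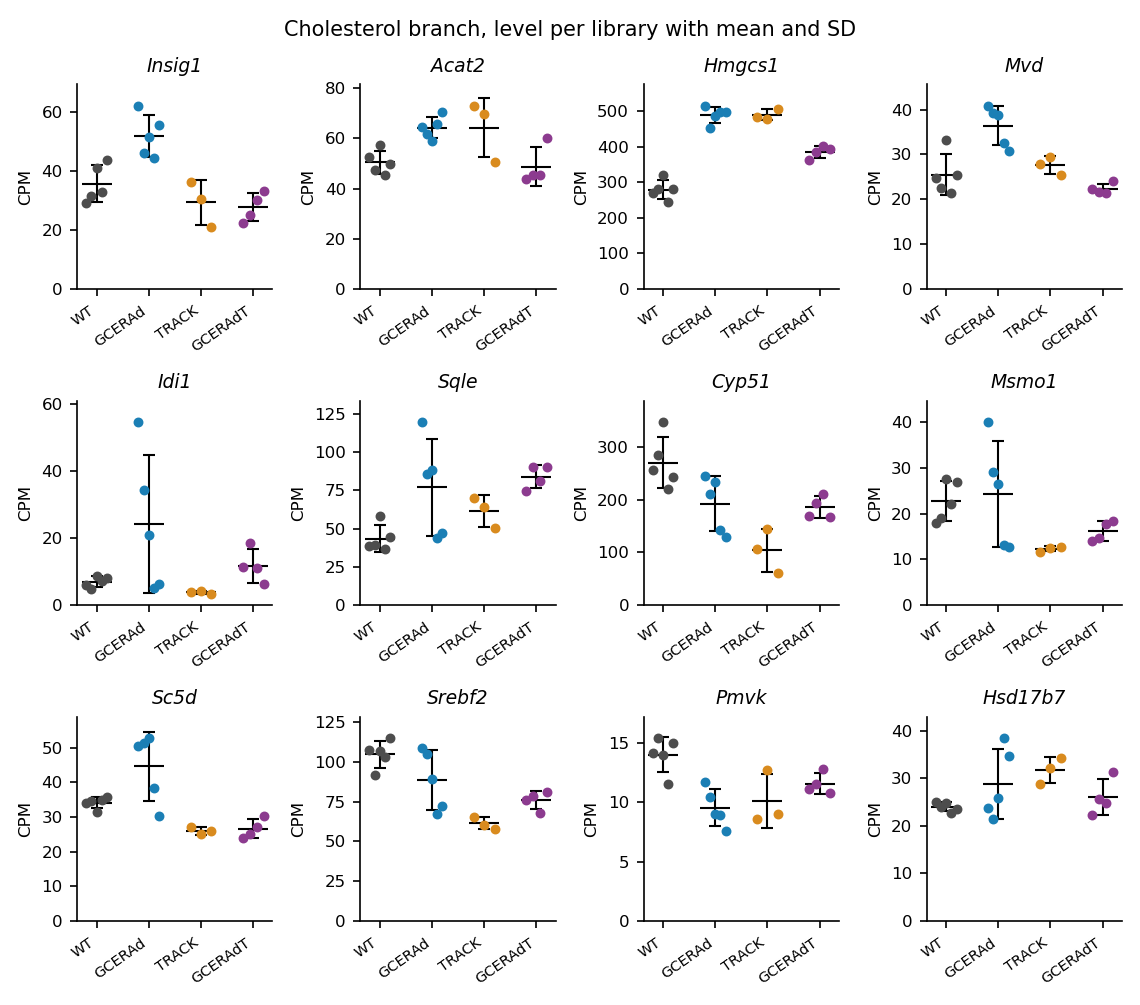
CPM of 12 cholesterol genes in each library (points, by group) with the group mean and SD (black), on axes that start at 0. GCERAd values of Idi1, Sqle, Msmo1 and Sc5d form a higher set from libraries 1 to 3 and a lower set from libraries 4 and 5, while those of Hmgcs1 lie together between 452.5 and 513 CPM.

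From squalene on, Sqle, the squalene epoxidase and a rate-limiting step of the pathway, was at 38.7, 39.4, 58.2, 36.5 and 44.2 CPM in WT, 119, 85.7, 88.4, 43.7 and 47.2 CPM in GCERAd, 70.2, 64.1 and 50.2 CPM in TRACK and 74.4, 89.9, 81.3 and 90.3 CPM in GCERAdT. GCERAdT lay above TRACK and WT in every library, and GCERAd 4 and 5 lay within the WT range. Sqle rose in GCERAd over WT (log2 fold change 0.84, SE 0.26, adjusted p = 0.0305) and in TRACK over WT (log2 fold change 0.50, SE 0.16, adjusted p = 0.0239). The first call was lost without WT 1, 2, 4 or 5 or GCERAd 1, 2 or 3 (highest adjusted p = 0.0711), and the second without WT 1, WT 4, TRACK 1 or TRACK 2 (highest adjusted p = 0.104). It missed the threshold in GCERAdT over TRACK (log2 fold change 0.46, SE 0.12, adjusted p = 0.0545).

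Cyp51, the lanosterol demethylase, stood at 256, 284, 347, 220.4 and 244 CPM in WT, 244, 212, 233, 143 and 129.8 CPM in GCERAd, 106, 144 and 61.4 CPM in TRACK and 169.6, 194, 211 and 167 CPM in GCERAdT. TRACK 1 to 3 were below WT in every library and below GCERAdT in every library, and TRACK 3 was the lowest of the 17. It fell in TRACK over WT (log2 fold change -1.38, SE 0.25, adjusted p = 0.00147). In GCERAd over WT Cyp51 did not pass (log2 fold change -0.48, SE 0.19, adjusted p = 0.079), while DESeq2 called it lower (adjusted p = 0.0325). The difference between GCERAdT and TRACK did not pass (log2 fold change 0.85, SE 0.24, adjusted p = 0.0626).

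Msmo1, which removes the methyl groups at carbon 4 of sterols, was at 18.0, 19.1, 27.6, 22.1 and 26.9 CPM in WT, 40.0, 29.1, 26.4, 13.2 and 12.8 CPM in GCERAd, 11.7, 12.6 and 12.6 CPM in TRACK and 14.1, 14.6, 17.8 and 18.5 CPM in GCERAdT. TRACK was below all WT and GCERAdT libraries, and GCERAd was split in the same way as Idi1. Msmo1 fell in TRACK over WT (log2 fold change -0.88, SE 0.15, adjusted p = 0.00109), and GCERAd over WT gave 0.11 (adjusted p = 0.81).

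Sc5d, the lathosterol desaturase, had 34.0, 34.5, 31.5, 34.8 and 35.9 CPM in WT, 50.5, 51.4, 52.6, 38.4 and 30.2 CPM in GCERAd, 27.1, 25.0 and 25.8 CPM in TRACK and 24.0, 25.1, 27.1 and 30.3 CPM in GCERAdT. GCERAd 1 to 3 were above every other library. Sc5d fell in GCERAdT over GCERAd (log2 fold change -0.76, SE 0.16, adjusted p = 0.00907) and in TRACK over WT (log2 fold change -0.39, SE 0.07, adjusted p = 0.00121). In GCERAd over WT it missed the threshold (log2 fold change 0.40, SE 0.14, adjusted p = 0.0512), while DESeq2 called it higher (adjusted p = 0.0221). Dhcr7, which makes cholesterol from 7-dehydrocholesterol, had 16.0, 14.1, 18.5, 14.3 and 17.3 CPM in WT, 28.8, 23.3, 21.9, 15.5 and 13.3 CPM in GCERAd, 12.2, 9.79 and 14.7 CPM in TRACK and 13.8, 15.7, 15.2 and 16.7 CPM in GCERAdT. Its highest values were again those of GCERAd 1 to 3. Dhcr7 fell in TRACK over WT (log2 fold change -0.39, SE 0.14, adjusted p = 0.046), a call lost without WT 1, 3 or 5 or TRACK 1 or 2 (highest adjusted p = 0.179).

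Fdft1, the squalene synthase, had 27.5, 23.9, 29.8, 31.8 and 33.7 CPM in WT, 26.7, 26.2, 19.4, 16.8 and 14.1 CPM in GCERAd, 19.5, 19.0 and 21.1 CPM in TRACK and 21.8, 25.3, 16.8 and 16.3 CPM in GCERAdT. TRACK was below WT in all libraries (log2 fold change -0.56, SE 0.11, adjusted p = 0.0026). In GCERAd over WT Fdft1 missed the threshold (log2 fold change -0.49, SE 0.17, adjusted p = 0.0514), while DESeq2 called it lower (adjusted p = 0.0206). The exons of Fdft1 overlap those of Ctsb on the opposite strand over 18.3% of their bases.

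Lss, which closes the sterol rings, was at 17.2, 15.7, 17.2, 18.8 and 19.7 CPM in WT, 21.4, 21.0, 18.6, 17.1 and 18.7 CPM in GCERAd, 13.7, 15.8 and 17.2 CPM in TRACK and 16.1, 15.9, 12.9 and 16.5 CPM in GCERAdT. All GCERAd values lay above those of GCERAdT. Lss fell in GCERAdT over GCERAd (log2 fold change -0.35, SE 0.10, adjusted p = 0.0373), a call lost without GCERAd 1, 2, 3 or 5 or GCERAdT 1, 2 or 3 (highest adjusted p = 0.101). Tm7sf2, a sterol C14 reductase, had 13.3, 12.6, 13.3, 12.4 and 12.8 CPM in WT, 11.1, 10.1, 11.8, 14.4 and 10.6 CPM in GCERAd, 9.27, 10.2 and 9.22 CPM in TRACK and 7.14, 10.1, 12.1 and 11.8 CPM in GCERAdT. It fell in TRACK over WT (log2 fold change -0.43, SE 0.09, adjusted p = 0.00313), with no overlap of these groups. It shares 12.1% of its exon bases with Vps51 on the same strand.

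Hsd17b7, a sterol 3-ketoreductase, ran against its neighbours, at 25.1, 24.0, 24.7, 22.6 and 23.6 CPM in WT, 23.8, 21.4, 25.9, 38.4 and 34.7 CPM in GCERAd, 28.7, 32.2 and 34.2 CPM in TRACK and 22.2, 25.7, 24.9 and 31.3 CPM in GCERAdT. Every TRACK library was above every WT library, and GCERAd 4 and 5 were the highest of all. It rose in TRACK over WT (log2 fold change 0.40, SE 0.07, adjusted p = 0.00173). Stard4, a cytosolic sterol carrier, had 95.1, 108, 103, 96.5 and 98.6 CPM in WT, 106, 98.8, 123, 95.4 and 96.3 CPM in GCERAd, 74.0, 85.5 and 93.7 CPM in TRACK and 88.1, 91.8, 111 and 102 CPM in GCERAdT. TRACK lay just below WT in all libraries, and the fall in TRACK over WT (log2 fold change -0.24, SE 0.09, adjusted p = 0.0421) was lost without any single WT library, without TRACK 1 and without TRACK 2 (highest adjusted p = 0.188). The sterol dehydrogenase Nsdhl ranged from 35.3 to 67.5 CPM and the isomerase Ebp from 50.6 to 93.2 CPM over the 17 libraries. Neither passed in any comparison by the main fit. Without GCERAd 4 and 5, Ebp was called lower in GCERAd over WT, at -0.34 (adjusted p = 0.0265). With the replicate block Nsdhl passed in GCERAdT over GCERAd, at -0.50 (adjusted p = 0.0428), next to -0.42 (adjusted p = 0.0741) without it.

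In the fatty acid branch, Me1 and Acss2, which supply NADPH and acetyl-CoA, were higher in every library outside WT than in any WT library. Me1, the cytosolic malic enzyme, a source of NADPH, stood at 195, 164, 234, 185 and 178 CPM in WT, 507, 565, 448, 433 and 404 CPM in GCERAd, 616, 589 and 394 CPM in TRACK and 629, 704, 572 and 599.8 CPM in GCERAdT. The 5 WT libraries lay below all 12 others, and GCERAdT lay above GCERAd in every library. Me1 rose in GCERAd over WT (log2 fold change 1.31, SE 0.12, adjusted p = 1.18e-05) and in TRACK over WT (log2 fold change 1.48, SE 0.15, adjusted p = 4.75e-05). In GCERAdT over GCERAd it rose (log2 fold change 0.40, SE 0.11, adjusted p = 0.0319), a call lost without GCERAd 3 or 4 or GCERAdT 1, 2 or 4 (highest adjusted p = 0.105).

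Acss2, which makes acetyl-CoA from acetate, was at 162, 154, 166, 152 and 148 CPM in WT, 296, 354, 329, 368 and 306 CPM in GCERAd, 286, 278 and 182 CPM in TRACK and 228, 208, 199.5 and 204 CPM in GCERAdT. WT was again below all others, and GCERAd was above all others. The log2 fold change was 1.09 ± 0.08 (SE, adjusted p = 2.10e-06) in GCERAd over WT, 0.67 ± 0.13 (SE, adjusted p = 0.00229) in TRACK over WT and -0.67 ± 0.09 (SE, adjusted p = 0.000752) in GCERAdT over GCERAd.

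Acly, which makes acetyl-CoA from citrate, was highest in TRACK, at 137, 135, 135, 148 and 132 CPM in WT, 138, 148, 144, 201 and 193 CPM in GCERAd, 380.2, 386 and 286 CPM in TRACK and 202, 199, 188 and 281 CPM in GCERAdT. The TRACK libraries lay above all others, and GCERAdT 4 stood above the other 3 GCERAdT libraries. Acly rose in TRACK over WT (log2 fold change 1.35, SE 0.10, adjusted p = 5.95e-06) and was lower in GCERAdT than in TRACK (log2 fold change -0.68, SE 0.16, adjusted p = 0.0319). The second call was lost without TRACK 1, TRACK 2 or GCERAdT 1, 2 or 3 (highest adjusted p = 0.124). In GCERAdT over GCERAd the log2 fold change was 0.39 (adjusted p = 0.111), and 0.45 (adjusted p = 0.00254) with the replicate block.

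Fasn, the fatty acid synthase that assembles palmitate, had 42.4, 30.5, 51.1, 48.9 and 59.0 CPM in WT, 92.1, 88.1, 66.0, 64.3 and 67.2 CPM in GCERAd, 105, 104 and 83.0 CPM in TRACK and 61.9, 63.9, 48.4 and 79.8 CPM in GCERAdT. Both GCERAd and TRACK lay above WT in every library, and TRACK lay above GCERAdT. Fasn rose in GCERAd over WT (log2 fold change 0.72, SE 0.17, adjusted p = 0.00823) and in TRACK over WT (log2 fold change 1.07, SE 0.18, adjusted p = 0.000963), and was lower in GCERAdT than in TRACK (log2 fold change -0.61, SE 0.15, adjusted p = 0.0459). The last call was lost without TRACK 1, TRACK 2 or GCERAdT 1, 2 or 3 (highest adjusted p = 0.158). In TRACK 1, 2 and 3 the adipocyte gene Cfd was at 50.9, 0.176 and 0.523 CPM. Without TRACK 1, the only TRACK library counted as having adipocyte transcripts, Fasn and Acly were still called in TRACK over WT. In GCERAdT over TRACK both calls were lost, at log2 fold changes of -0.55 for Fasn and -0.62 for Acly. Both were also lost there without TRACK 2. Acaca, the acetyl-CoA carboxylase before Fasn, ranged from 8.09 to 29.1 CPM over all libraries and passed in no comparison. Its log2 fold change in GCERAdT over GCERAd was -0.71 (adjusted p = 0.135), and it passed there at -0.78 with the replicate block (adjusted p = 0.00277) and also at -0.78 once library kind entered the fit (adjusted p = 0.000337). With kind in the fit it also passed in GCERAd over WT, at 0.58 (adjusted p = 0.00168) in place of 0.25 (adjusted p = 0.513).

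**Figure D4:**
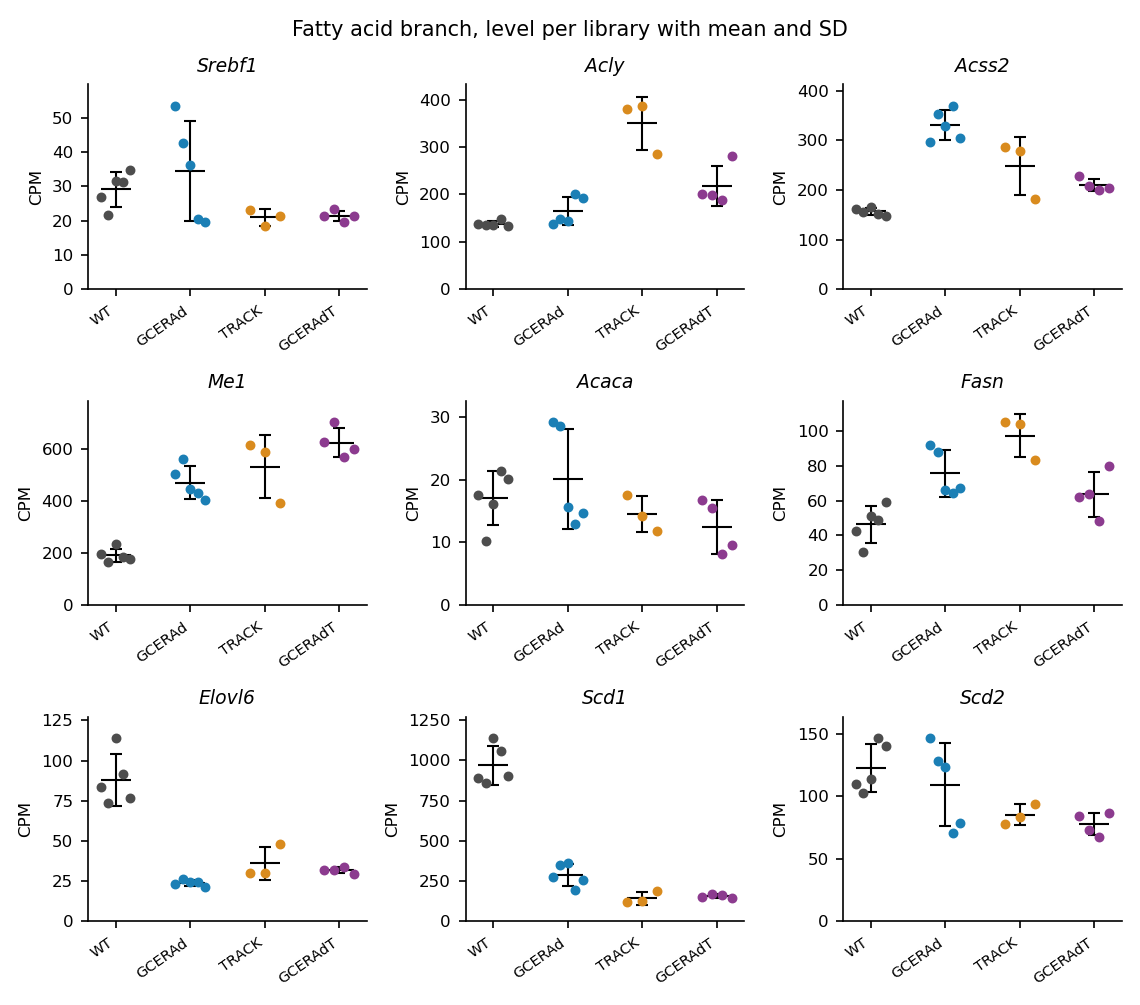
CPM of the 9 fatty acid genes in each library (points, by group) with the group mean and SD (black), on axes that start at 0. Me1 and Acss2 are higher and Elovl6 and Scd1 are lower in every library outside WT than in any WT library, and Acly is highest in the 3 TRACK libraries.

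Scd1 and Elovl6, which desaturate and lengthen fatty acids, went in the opposite direction. Scd1 (chr19:44394455-44407879, minus strand), the stearoyl-CoA desaturase, stood at 891, 860.5, 1137, 1057 and 900.5 CPM in WT, 276, 352, 361, 191 and 258 CPM in GCERAd, 117, 122 and 189.9 CPM in TRACK and 150.3, 167, 161 and 143 CPM in GCERAdT. The 5 WT values lay far above the others, GCERAd came next, and TRACK and GCERAdT overlapped. Scd1 fell in GCERAd over WT (log2 fold change -1.74, SE 0.17, adjusted p = 2.44e-05) and in TRACK over WT (log2 fold change -2.76, SE 0.18, adjusted p = 3.83e-06). GCERAdT was lower than GCERAd (log2 fold change -0.90, SE 0.17, adjusted p = 0.00515), without overlap.

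Elovl6 (chr3:129532355-129638495, plus strand), the elongase of palmitate, was at 83.7, 73.7, 114, 91.9 and 76.8 CPM in WT, 23.0, 25.9, 24.5, 24.4 and 21.0 CPM in GCERAd, 29.9, 30.2 and 48.1 CPM in TRACK and 31.6, 31.9, 33.6 and 29.1 CPM in GCERAdT. WT lay above all others, and GCERAd lay below all others. Its log2 fold change was -1.88 ± 0.12 (SE, adjusted p = 1.07e-06) in GCERAd over WT, -1.28 ± 0.19 (SE, adjusted p = 0.000526) in TRACK over WT and 0.40 ± 0.08 (SE, adjusted p = 0.00751) in GCERAdT over GCERAd.

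Scd2, the paralog of Scd1 beside it on chromosome 19, had 109.7, 103, 113, 146 and 140.4 CPM in WT, 146, 128, 123, 70.5 and 78.2 CPM in GCERAd, 77.6, 83.6 and 94.0 CPM in TRACK and 84.0, 73.1, 67.5 and 86.5 CPM in GCERAdT. GCERAd was split again, with libraries 4 and 5 below WT. Scd2 fell in TRACK over WT (log2 fold change -0.52, SE 0.13, adjusted p = 0.00822), where the groups did not overlap, and did not pass in GCERAd over WT, at -0.15 ± 0.20 (SE, adjusted p = 0.594). Reads that both paralogs could share cannot be assigned with certainty from gene counts.

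Whether the change with the ATF4 KO label differed with and without TRACK was tested directly. The difference of the knockout contrasts, (GCERAdT over TRACK) minus (GCERAd over WT), was called for 12 of 31 members, against 25.1% of all genes tested. It was negative for 7, namely Acat2, Hmgcs1, Mvd, Acly, Acss2, Me1 and Fasn, all but Acly of which had risen in GCERAd over WT. It was positive for 5, namely Srebf2, Pmvk, Cyp51, Elovl6 and Scd1. Scd1 differed most, by 1.88 ± 0.26 (SE, adjusted p = 8.24e-05), since it fell in GCERAd over WT and was at 0.13 (adjusted p = 0.657) in GCERAdT over TRACK. For Elovl6 the difference was 1.70 ± 0.21 (SE, adjusted p = 2.60e-05), for Cyp51 1.33 ± 0.33 (SE, adjusted p = 0.00777), and for Acss2 -1.32 ± 0.16 (SE, adjusted p = 2.35e-05). Fasn differed by -1.32 ± 0.26 (SE, adjusted p = 0.00162), Hmgcs1 by -1.15 ± 0.11 (SE, adjusted p = 1.29e-06) and Me1 by -1.07 ± 0.20 (SE, adjusted p = 0.0011). Idi1 rose in both contrasts, and its difference of -0.20 had a standard error of 0.77 (adjusted p = 0.871). The difference for Srebf2, 0.56 ± 0.18 (SE, adjusted p = 0.0346), was lost in 10 of the fits that left out 1 library (highest adjusted p = 0.0838). GCERAd and WT differed in sex while GCERAdT and TRACK did not, so the part of sex in these differences cannot be told apart from that of TRACK.

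**Figure D5:**
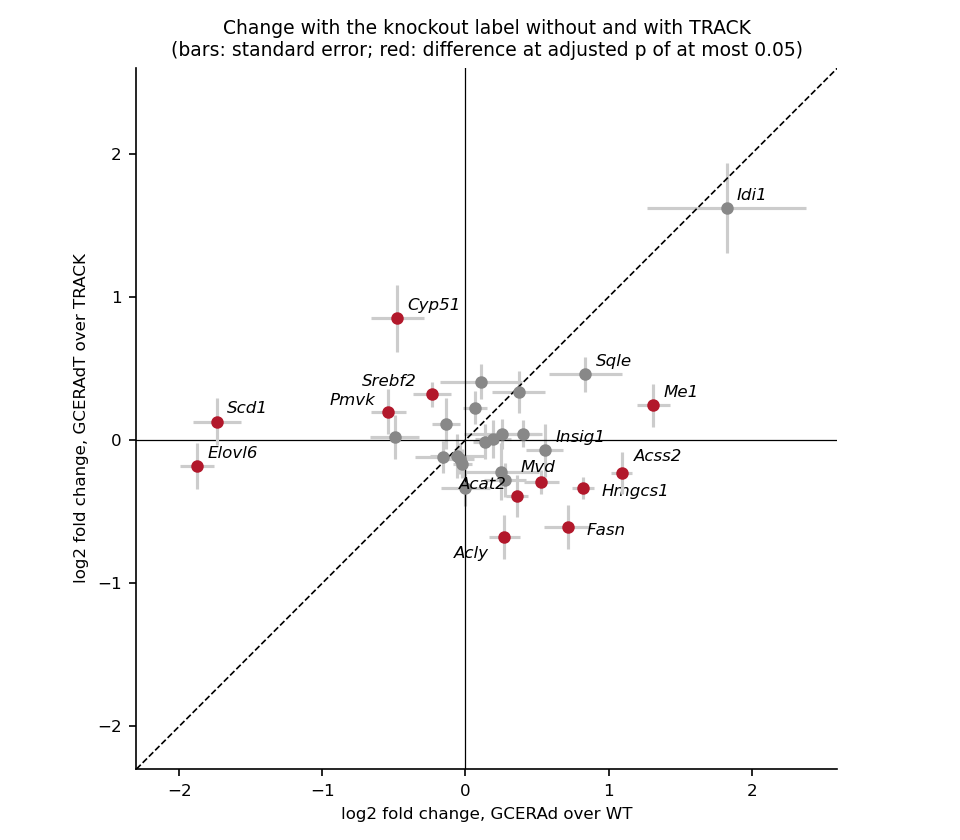
Log2 fold change of each member in GCERAd over WT (horizontal) against GCERAdT over TRACK (vertical), with bars of 1 standard error, the line of equal change dashed, and red points for a difference with an adjusted p of at most 0.05. Idi1 lies on the line near the upper right, while Scd1 and Elovl6 lie far to the left of it near 0 on the vertical axis.

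Library kind moved with TRACK, since all TRACK libraries were of kind B. With kind as a covariate, the folds of TRACK over WT rest on WT 2, the only WT library of kind B, so only effect sizes are given for them. Of the other calls, all 12 in GCERAd over WT and all 10 in GCERAdT over GCERAd were kept. In GCERAdT over TRACK 0 of the 4 were kept, and in the difference 11 of 12 (without Srebf2). Among the calls in TRACK over WT, the log2 fold change moved by over 1.5 times for Srebf1 (-0.48 to -0.04), Idi1 (-0.85 to -0.29), Fdft1 (-0.56 to -0.26), Dhcr7 (-0.39 to -0.20), Scd2 (-0.52 to -0.27) and Fasn (1.07 to 1.67). Without the 3 libraries with adipocyte transcripts, 10 of 12 calls were kept in GCERAd over WT, 18 of 23 in TRACK over WT, 7 of 10 in GCERAdT over GCERAd and 0 of 4 in GCERAdT over TRACK. Of these libraries, only TRACK 1 is part of TRACK over WT and GCERAdT over TRACK. Leaving out TRACK 2 in its place kept 18 of 23 and 1 of 4. Without GCERAd 4 and 5, 14 members rose in GCERAd over WT, now with Msmo1, Nsdhl, Sc5d, Dhcr7 and Srebf1, while Ebp was newly called lower. Over all genes 1881 of 11636 rose there, against 1638 of 11581 in the main fit. In GCERAdT over GCERAd 16 members fell without these libraries. Over all genes 1610 of 11895 fell there, against 1157 of 11816 in the main fit. When possible repeat libraries were summed (WT 1 with 2, GCERAd 2 with 3), Idi1 and Sqle in GCERAd over WT and Lss in GCERAdT over GCERAd no longer passed.

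Genes around the pathway were read from 3 lists. Of 16 genes for SREBP processing and for the electron supply of sterol synthesis, all tested, 4 rose (25.0%) and 0 fell in GCERAd over WT, against 14.1% and 13.5% of all genes tested. In TRACK over WT 3 rose (18.8%) and 3 fell (18.8%), against 23.0% and 22.6%, and in GCERAdT over GCERAd 0 rose and 4 fell (25.0%), against 9.39% and 9.79%. In GCERAdT over TRACK edgeR called 0, against 2.81% and 4.28%, while 2 rose and 3 fell at an unadjusted p under 0.05 and DESeq2 called 1 in each direction. For GCERAd over WT 1 fell at an unadjusted p under 0.05 and in DESeq2, and in GCERAdT over GCERAd 0 rose by either. The median log2 fold changes of the list, in the order of these 4 comparisons, were 0.05, -0.01, -0.09 and -0.02, and those of all genes lay between -0.01 and 0.01. Lbr, which is also a sterol C14 reductase, rose from 17.1 ± 2.13 CPM in WT to 34.6 ± 7.03 CPM in GCERAd (log2 fold change 1.03, adjusted p = 0.000297). Cyb5a, the cytochrome b5 that feeds electrons to desaturases, rose from 486 ± 24.7 to 801 ± 159 CPM (log2 fold change 0.73, adjusted p = 0.00152). Erlin1, which takes part in the breakdown of reductase and Insig complexes, fell in TRACK over WT from 125.5 ± 12.6 to 74.0 ± 7.36 CPM (log2 fold change -0.76, adjusted p = 0.000276). Por, the reductase that serves Cyp51 and Sqle, was lower in GCERAdT (239.5 ± 19.9 CPM) than in GCERAd (352 ± 39.6 CPM), with a log2 fold change of -0.57 (adjusted p = 0.00385).

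Of 16 genes for sterol export, uptake, breakdown and storage, 12 or 13 were tested. In GCERAd over WT 3 rose (25.0%) and 0 fell, against 14.1% and 13.5% of all genes tested, and in TRACK over WT 5 rose (38.5%) and 1 fell (7.7%), against 23.0% and 22.6%. In GCERAdT over GCERAd 3 rose (25.0%) and 3 fell (25.0%), against 9.39% and 9.79%, and in GCERAdT over TRACK 0 rose and 3 fell (23.1%), against 2.81% and 4.28%. For GCERAd over WT 1 fell at an unadjusted p under 0.05 and in DESeq2, and in GCERAdT over TRACK 0 rose by either. Medians of the list were 0.24, 0.29, 0.03 and 0.00 on the log2 scale. Cyp7b1, the oxysterol hydroxylase, had 2.19 ± 0.547 CPM in WT and 203 ± 59.1 CPM in GCERAd (log2 fold change 6.54, adjusted p = 1.9e-08), and 226 ± 147 CPM in TRACK (log2 fold change 6.69 over WT, adjusted p = 7.13e-06). This gene is known for a higher level in male than in female kidney. Scarb1, a lipoprotein receptor, rose from 16.3 ± 1.57 CPM in WT to 31.2 ± 0.882 CPM in TRACK (log2 fold change 0.94, adjusted p = 3.06e-05) and was lower in GCERAdT, at 22.0 ± 1.66 CPM (log2 fold change -0.50 over TRACK, adjusted p = 0.00947). Abcg1, a sterol exporter, was also lower in GCERAdT (3.88 ± 0.297 CPM) than in TRACK (7.59 ± 1.51 CPM), with a log2 fold change of -0.96 (adjusted p = 0.0141).

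Of 27 partners of fatty acid synthesis, 25 were tested. In GCERAd over WT 8 rose (32%) and 5 fell (20%), against 14.1% and 13.5% of all genes tested, and in TRACK over WT 9 rose (36.0%) and 7 fell (28.0%), against 23.0% and 22.6%. In GCERAdT over GCERAd 1 rose (4.0%) and 8 fell (32%), against 9.39% and 9.79%, and in GCERAdT over TRACK 1 rose (4.0%) and 4 fell (16.0%), against 2.81% and 4.28%. Medians of the list were 0.14, 0.09, -0.16 and -0.12 on the log2 scale. Lpin1, a phosphatidate phosphatase, had 62.5 ± 10.4 CPM in WT, 110.5 ± 36.9 CPM in GCERAd, 217.5 ± 60.4 CPM in TRACK and 91.0 ± 19.8 CPM in GCERAdT. It rose in GCERAd over WT (log2 fold change 0.83, adjusted p = 0.0105) and in TRACK over WT (1.80, adjusted p = 4.13e-05), and was lower in GCERAdT than in TRACK (-1.25, adjusted p = 0.00825). Thrsp, a lipogenic protein that responds to thyroid hormone, rose from 3.38 ± 1.46 CPM in WT to 8.06 ± 0.449 CPM in TRACK (log2 fold change 1.25, adjusted p = 0.00646) and was at 4.53 ± 0.837 CPM in GCERAdT (-0.82 over TRACK, adjusted p = 0.026). Elovl2, an elongase of polyunsaturated fatty acids, was higher in GCERAdT (65.4 ± 2.30 CPM) than in TRACK (35.3 ± 12.9 CPM), with a log2 fold change of 0.90 (adjusted p = 0.0271). Acsl1, which activates long-chain fatty acids, was at 649 ± 61.0 CPM in WT and lower, at 288 ± 152 CPM, in GCERAd (log2 fold change -1.16, adjusted p = 0.0121).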

How the data were processed

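The authors deposited raw read counts per gene from kidney cortex RNA (TruSeq Stranded mRNA kit, paired-end). Per the labels and methods, they demultiplexed with bcl2fastq 2.20, trimmed with Cutadapt, aligned to GRCm38 with STAR and counted with HTSeq, without normalization. The annotation release, strand setting and handling of reads with several matches are not given in the sources used here, so genes with overlapping exons (13 of the 32 members) are uncertain. From these counts, edgeR 4.0.16 (R 4.3.3) fitted a quasi-likelihood model with TMM scaling to the 2 groups of each comparison, and to all 17 libraries for the difference of the knockout contrasts. Genes were tested at a mean of at least 1 FPKM in either group (lengths from GENCODE exons of GRCm38) and called where p, adjusted by Benjamini-Hochberg over every tested gene, was 0.05 or less. For members under that minimum, values come from the fit without one. DESeq2 1.42.0 and the other alternatives stand in the closing section. The procedure was tested on simulated data. No pair of libraries within a group agreed within sampling noise. The possible repeats, WT 1 with 2 and GCERAd 2 with 3, differed in library kind, so this check cannot show whether they are repeats. The members, lists and rule for named genes (all members, with every value for those called in any comparison and for Srebf1, Srebf2, Insig1 and Insig2, and up to 3 called genes of largest change for each related list and comparison) were chosen with earlier results of these data known. Of the genes that this rule selects from the related lists, only a part is described. Same-numbered GCERAdT and GCERAd libraries deviated together (correlations 0.41, 0.541, 0.518 and 0.381), while the labels do not say what a number marks. In both groups libraries 1 and 2 were of kind A and libraries 3 and 4 of kind B.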

Additional observations from a re-analysis of the deposited data

Results flagged for a closer look

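In groups of 4 or 5 libraries, 96 sets of values were searched for 1 library far from the rest, and 4 were found, where chance gives about 1 in 20. Acat2 in GCERAdT 4, at 60.3 CPM, left a gap of 0.889 of the range of its group, and Acly in GCERAdT 4, at 281 CPM, one of 0.853. Lss in GCERAdT 3, at 12.9 CPM, was low, with a gap of 0.84, and Nsdhl in WT 2, at 48.5 CPM, was low, with a gap of 0.818. GCERAdT 4 was a library of kind B.

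The change with the ATF4 KO label differed between the cortices with and without TRACK for 12 members, by the test of the difference itself in edgeR with all 17 libraries. On the log2 scale the difference, (GCERAdT over TRACK) minus (GCERAd over WT), was 1.88 for Scd1 (adjusted p = 8.24e-05), 1.70 for Elovl6 (2.6e-05), 1.33 for Cyp51 (0.00777), 0.74 for Pmvk (0.0128) and 0.56 for Srebf2 (0.0346). It was -1.32 for Acss2 (2.35e-05), -1.32 for Fasn (0.00162), -1.15 for Hmgcs1 (1.29e-06), -1.07 for Me1 (0.0011), -0.95 for Acly (0.00282), -0.82 for Mvd (0.00225) and -0.75 for Acat2 (0.00394). WT libraries came from mice of the other sex than all other libraries, and the part of sex in these differences cannot be told apart from that of TRACK.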

How the results depend on the processing

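Counts of members called depended on these settings, of which those leaving out libraries with adipocyte transcripts or GCERAd 4 and 5, and those within 1 library kind, were chosen after seeing the data. DESeq2 gave 5 lower in GCERAd over WT (in place of 3, with Fdft1 and Cyp51 added) and 4 higher in GCERAdT over TRACK (in place of 1). Over all genes these were 1732 (in place of 1560) and 722 (in place of 335). Without an FPKM minimum 3 were higher in GCERAdT over TRACK and 1 in GCERAdT over GCERAd (in place of 2). All 17 samples in 1 fit gave 0 higher in GCERAdT over TRACK. With library kind as a covariate, 0 were lower in GCERAdT over TRACK (in place of 3). Over all genes this was 295 of 11928 (in place of 511). Counts of TRACK over WT with this covariate are not given, since its folds then rest on WT 2 alone. Without libraries with adipocyte transcripts, GCERAdT over TRACK, where only TRACK 1 is left out, had 0 higher and 0 lower. GCERAdT over GCERAd had 5 lower (in place of 8). Over all genes the first had 138 higher and 258 lower of 11953, and the second 489 lower of 11809. Without GCERAd 4 and 5, 14 were higher in GCERAd over WT (in place of 9) and 16 lower in GCERAdT over GCERAd. Within kind A these were 15 and 18. Over all genes they were 1881 of 11636 and 1610 of 11895 without GCERAd 4 and 5. Within kind A they were 1656 of 11605 and 1547 of 11893. Within kind B, GCERAdT over GCERAd had 0 higher and 2 lower, with 247 and 102 of all 11803 genes. GCERAdT over TRACK had 0 and 0 there, with 77 and 144 of all 11885 genes. Counts within kind B that involve WT are not given, since WT has 1 library of that kind. The cause was not tested, beyond the smaller number of libraries. Leaving out 1 library at a time gave 7 to 11 higher and 3 to 5 lower in GCERAd over WT, 6 to 9 and 12 to 14 in TRACK over WT, 1 to 2 and 6 to 12 in GCERAdT over GCERAd, 0 to 2 and 0 to 6 in GCERAdT over TRACK, and 11 to 13 in the difference.

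With the library number as a replicate block, 10 of the 12 calls in GCERAd over WT were kept (without Idi1 and Sqle), 17 of 23 in TRACK over WT, 3 of 4 in GCERAdT over TRACK, all 10 in GCERAdT over GCERAd, where Acly (higher) and Srebf1, Nsdhl and Acaca (lower) were added, and all 12 in the difference. With the block, a library whose number the other group lacks adds nothing to a comparison of 2 groups. This holds for GCERAd 5 in GCERAdT over GCERAd, WT 4 and 5 in TRACK over WT, and GCERAdT 4 in GCERAdT over TRACK. Outside GCERAdT over GCERAd, correlations of same-numbered libraries were between -0.591 and 0.051. There many same-numbered libraries differed in kind, whereas those of GCERAdT and GCERAd were of the same kind. The part of library kind in these correlations was not tested. No called direction of a member reversed under any setting. Fdps, at 0.503 to 1.64 CPM, was left out by the FPKM minimum, and in the fits without one its log2 fold changes had standard errors of 0.32 to 0.45 and none passed.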

Other observations

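The members differed widely within GCERAd. The ranks that follow use counts relative to the unscaled library total, unlike the TMM-scaled CPM given elsewhere. Of 31 members with a mean of at least 1 FPKM in GCERAd, 20 (64.5%) had their 2 lowest values in GCERAd 4 and 5, against 30.9% of 11105 genes, and 3 (9.7%) had their 2 highest values there, against 21.7%. The 20 were spread over both branches, 14 of 22 in the cholesterol branch and 6 of 9 in the fatty acid branch. They included both Srebf1 and Srebf2 and most enzymes from Fdft1 to Dhcr7, whereas Acly, Ebp and Hsd17b7 were highest in these libraries. Insig1, Acat2, Hmgcs1 and Acss2 were in neither set by these ranks. On the TMM-scaled CPM given above, Lss and Elovl6 left the lower set and Acat2 entered the upper one. GCERAd 4 and 5 were both of kind B, as was GCERAd 3, which lay with GCERAd 1 and 2 for most of these genes. Some markers of cell types were split between the same libraries, with Lrp2 of proximal tubules at 1136 and 1147 CPM in GCERAd 4 and 5 and 1916 to 2108 CPM in GCERAd 1 to 3, Slc34a1 at 2944 and 2826 against 4036 to 4945 CPM, and Aqp2 of the collecting duct at 104 and 100.1 against 275 to 286 CPM. Cubn and Slc5a12 of proximal tubules were also lower in GCERAd 4 and 5. Other markers overlapped, namely Aqp1, Slc5a2 and Ggt1 of proximal tubules, Slc4a1 and Atp6v1g3 of the collecting duct, and Top2a of the cell cycle. The proliferation marker Mki67 was at 0.587 and 0.688 against 2.62 to 3.03 CPM, while Slc22a6 of proximal tubules was higher, at 1202 and 1163 against 684 to 923 CPM. The part of these markers in the split was not tested. These shares were looked up after the libraries had been seen to stand apart and are given as a description.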
